A study of Mustela putorius furo with 8 samples.

Results

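Cluster 16 of the WT ferret pancreatic ductal epithelial (PDE) cultures is a group of cells that the study named centroacinar. Its members were every retained WT cell with that cluster number in the deposited cell table, 634 of 21600 WT cells and of 32945 cells in the series. The PDE cultures came from ductal structures of newborn WT ferrets and of CFTR KO/KO (CF) ferrets, were expanded in dishes and were then polarized at an air-liquid interface. Single-cell libraries were made with the 10x Genomics droplet method, 1 for each of the 2 genotypes on each of 4 days (2, 5, 7 and 9). Cells from more than one ferret went into each genotype, and they could not be split by donor here. Only the WT libraries enter the comparisons below, and CF clusters appear once, as a reference for likeness. Neither a compound nor any other treatment separates the groups.

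Centroacinar cells sit where the smallest pancreatic ducts meet the acini, the enzyme-secreting units of the gland. They are known for ductal keratins, Notch signalling through HES1, and fluid and bicarbonate secretion through CFTR, the chloride and bicarbonate channel lost in cystic fibrosis. Polarized epithelia build an apical coat of transmembrane mucins, whose long sugar-bearing domains stand on the surface, while MUC5AC and MUC5B are secreted and form gels. PROM1 is a membrane protein of apical protrusions and is often used as a progenitor marker.

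The clusters were formed on the same genes that describe them, and each day has 1 library. Every difference below is therefore a description with no test, and the days are not replicates. Levels are UMIs (unique molecular identifiers, counted transcripts) per 1000000 UMIs, called CPM. Intervals in parentheses are exact 95% Poisson intervals of a UMI sum or exact Clopper-Pearson intervals of a share, and they cover counting error only. Other WT cells were weighted so that each library had the share of UMIs it has in cluster 16, which is called day-matched here. Differences are log2(CPM + 1) in cluster 16 minus that in the comparison cells, a scale that understates the change of genes near 1 CPM.

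Cluster 16 was a late group. It held 5 of 6224 cells at day 2, a share of 0.0803% (0.0261 to 0.187%). At day 5 it held 78 of 5326 cells, or 1.46% (1.16 to 1.82%), and at day 7 it held 108 of 4634, or 2.33% (1.92 to 2.81%). At day 9 it held 443 of 5416 cells, or 8.18% (7.46 to 8.94%), the highest of the 4 shares. These intervals count cells of 1 library a day, so they do not compare the days. Day 9 gave 69.9% of the cells of the cluster and 73.5% of its 6557413 UMIs, so values for the whole cluster mostly describe that library. Within the cells deposited as centroacinar, cluster 16 took 17.2% at day 2 (5 of 29 cells), 10.3% at day 5, 13.8% at day 7 and 18.8% at day 9. The deposited class as a whole held 781 of the 4634 cells at day 7 and 2361 of the 5416 at day 9, so the larger part of the step between these days was shared with the class.

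**Figure D1:**
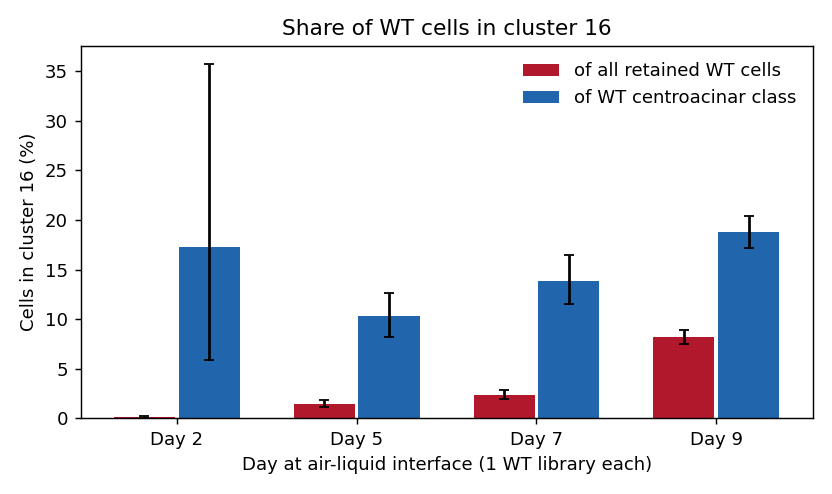
Percent of cells in cluster 16 by day, as a share of all retained WT cells (red) and of the WT cells deposited as centroacinar (blue), with exact 95% Clopper-Pearson intervals. The red share is 0.0803% at day 2 and 8.18% at day 9, while the blue share lies between 10.3% and 18.8%.

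The cells differed in quality measures from most WT cells, and these values stand beside every result below. The median cell held 10514.5 UMIs against 16126 in the other WT cells, and 3229 genes against 3815. Mitochondrial UMIs had a median of 14.3% against 9.01%, the highest of the 39 WT clusters with at least 50 cells. The protocol had depleted dead cells, the authors had set a maximum of 20% mitochondrial, and the highest retained cell of the cluster had 14.8% at day 5 and 20.0% at days 7 and 9. UMIs of genes annotated as ribosomal RNA (rRNA) were 0.463% of the median cell against 0.0551% in the other WT cells. In that measure cluster 16 ranked 4 of 39. Ahead of it were clusters 20, 35 and 38, whose median cells held 3396.5, 1897.5 and 2725.5 UMIs. Cluster 16 was deeper than those, and its high rRNA share was present at day 5 (0.487%), day 7 (0.489%) and day 9 (0.450%). Within the cluster, 68 cells had under 4% mitochondrial UMIs, a limit set after the data had been seen. Their median cell held 1909.5 UMIs, with 0.229% mitochondrial and 1.45% rRNA UMIs, against 10918.5 UMIs, 14.9% and 0.406% in the other 566. Among the other WT cells, 2.49% lay under the same limit. Leaving those 68 cells out gave 765 genes higher and 556 lower in place of 778 and 550 (defined below). Of the 634 cells, 7 had a barcode that also occurs in another library, among 148 such barcodes in the series.

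**Figure D2:**
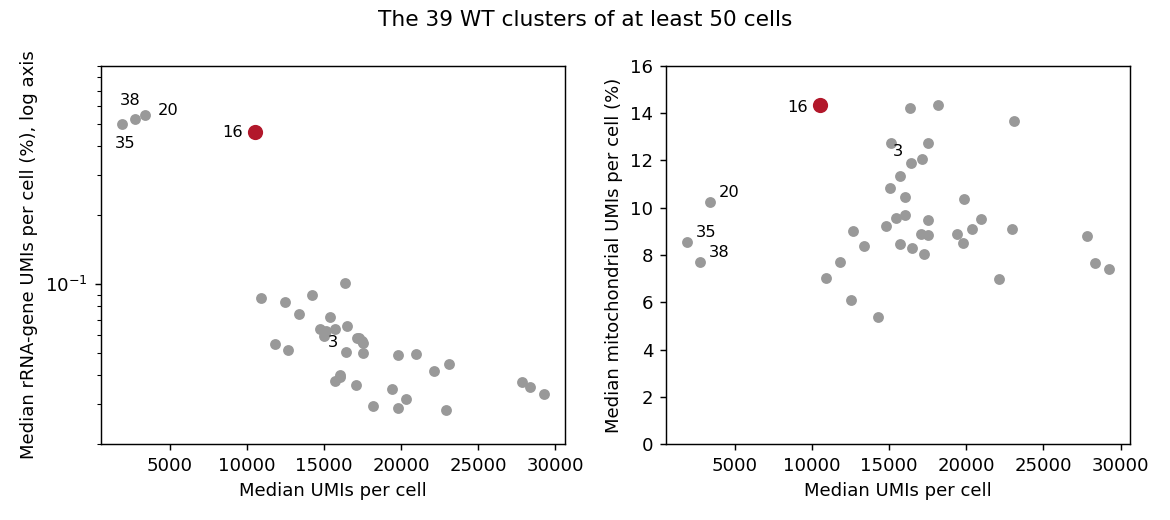
Each point is 1 of the 39 WT clusters with at least 50 cells, with median UMIs per cell on the x axes and, on the y axes, the median percent of rRNA-gene UMIs (left, log axis) and of mitochondrial UMIs (right). Cluster 16 (red) has 0.463% rRNA and 14.3% mitochondrial UMIs at 10514.5 UMIs. The numbered grey points 20, 35 and 38 share its rRNA level at much lower depth.

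Over the 8353 genes with at least 10 CPM in cluster 16 or in the day-matched other WT cells, 778 (9.31%) were at least 2-fold higher and 550 (6.58%) at least 2-fold lower. These percentages are the background for counts of list members in this main comparison. List counts under another setting have the background of that setting. It was 952 higher and 1002 lower of 19935 genes with no filter, 464 and 757 of 8322 with TMM factors, and 396 and 255 of 3521 with a filter at 50 CPM. Of the 778, 771 were above the other WT cells in each of the libraries of day 5, 7 and 9, and 548 of the 550 were below in each. Differences of at least 4-fold were more often downward, with 44 genes higher and 178 lower. The median over all 8353 genes was 0.16, and the scaling moved this. With TMM factors the median shifted by -0.17 and the calls became 464 higher and 757 lower, and with DESeq2 size factors by -0.16 and 476 higher and 743 lower. Against other WT cells matched on library, UMIs and mitochondrial percent (an alternative chosen after the data had been seen), 262 were higher and 293 lower.

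The class name was set beside the markers by which the study named the classes of these same cells, so they are not independent evidence. Of the 5 centroacinar class markers in the files, PROM1 and WSB1 were at least 2-fold higher in cluster 16 and none was 2-fold lower. WSB1 (167 CPM against 77.5) was not past 2-fold with TMM factors (0.91), with DESeq2 size factors (0.92), without day 5 or without day 7 (both 0.98), or against cells matched on UMIs and mitochondrial percent (0.53). S100A6, S100A4 and KRT7 differed by -0.20, 0.61 and -0.74. Of the 11 markers of the centroacinar progenitor class, 8 were at least 2-fold higher: ALDH1A1, KLF4, MUC1, MUC4, MUC5AC, MUC5B, MUC13 and MUC16. None was 2-fold lower. Among the 10 protein-coding genes furthest above the other WT cells, 1 was a centroacinar marker (PROM1) and 2 were progenitor markers (MUC4 and MUC13). Textbook genes of the centroacinar cell and duct did not set the cluster apart: 1 of 9 was 2-fold higher, CLDN4, a tight junction protein. HES1 stood at 530 CPM against 1036, and SOX9, a duct transcription factor, at 10.8 against 9.99. More of the progenitor class markers (8 of 11) than of the centroacinar class markers (2 of 5) were past 2-fold, and the cells are called by their cluster number here. This pattern was largely shared with cluster 3, the most like cluster 16 (described below). Against cluster 3, 1 of 11 progenitor markers and 1 of 5 centroacinar markers were higher, beside 2.77% of all genes. Their medians were 0.48 and 0.13, beside 0.30 over all genes. Against the matched cells, 4 of the 11 progenitor markers were higher and 1 was lower, beside 262 and 293 of all 8239 genes. Acinar class markers had 0 of 7 past 2-fold in either direction. Of the 6 ductal class markers, 4 were lower: ADIRF, CAPG, S100A10 and KRT5. Against cluster 3, 0 of these 6 were lower, with a median of -0.21, but only 0.101% of all genes were.

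Mucins were among the protein-coding genes furthest above the other WT cells, and 3 of them (MUC4, MUC13 and MUC5B) were in the leading 25 genes. MUC4, a transmembrane mucin, stood at 356 CPM at day 5, 525 at day 7 and 418 at day 9 in cluster 16, and at 50.5, 72.7 and 84.5 in the other WT cells. MUC13 stood at 493, 714 and 617 CPM, against 74.2, 105 and 132. MUC16 stood at 818, 797 and 1064 CPM, against 143, 137 and 290. On each of these days the cluster 16 value was more than 3 times the other. Day-matched differences were 2.43 for MUC4, 2.34 for MUC13 and 1.99 for MUC16. MUC1, also transmembrane, had 3066 CPM (3024 to 3109) against 979, a difference of 1.65. Of the gel-forming mucins, MUC5B had 181 CPM (171 to 192) against 41.2, a difference of 2.11, and MUC5AC had 217 CPM (206 to 229) against 90.8, a difference of 1.25. All 6 of the mucin genes with at least 10 CPM were 2-fold higher. MUC1, MUC4, MUC13 and MUC16 were at their highest here among the 39 WT clusters, while MUC5B was higher in cluster 18 (384 CPM) and MUC5AC in cluster 17 (368 CPM). Against cells matched on UMIs and mitochondrial percent, the differences of MUC4, MUC13, MUC16 and MUC1 were 1.71, 1.73, 1.39 and 1.04, while MUC5B (0.80) and MUC5AC (0.21) were no longer past 2-fold.

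PIGR, the receptor that carries antibodies through an epithelium to its apical side, had the largest difference of any protein-coding gene named by the rule. Its levels in cluster 16 were 46.6 CPM at day 5, 95.4 at day 7 and 184 at day 9, and in the other WT cells 4.38, 11.6 and 27.7. At day 9 the ratio was 6.66 (6.16 to 7.21). PROM1 stood at 1018, 1296 and 1237 CPM on the 3 days, against 124, 205 and 289, and the day 9 ratio was 4.28 (4.16 to 4.40). Both genes had their highest level among the WT clusters here. Against cells matched on UMIs and mitochondrial percent the difference of PIGR was 1.82 in place of 2.73 and that of PROM1 1.57 in place of 2.24, and without day matching they were 3.87 and 2.94. ENPP3, an ectoenzyme that cleaves nucleotides at the cell surface, had 1592, 1491 and 1500 CPM, against 264, 268 and 382. CFB, complement factor B, had 533, 578 and 550 CPM, against 70.3, 96.8 and 138. TRPV6, an apical calcium channel, had 57.8 CPM (52.1 to 63.9) against 11.1. The copper pump ATP7B had 23.2 CPM (19.6 to 27.2) against 4.44, and DEGS2, an enzyme of sphingolipid synthesis, 252 CPM (240 to 265) against 54.2. PPFIA2, ELAPOR1, ATP13A5, MUC5B and the unnamed genes LOC101693310 and LOC101690256 completed the 14 protein-coding genes of the leading 25, with differences between 2.11 and 2.33. The remaining 11 were rRNA genes, described below.

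**Figure D3:**
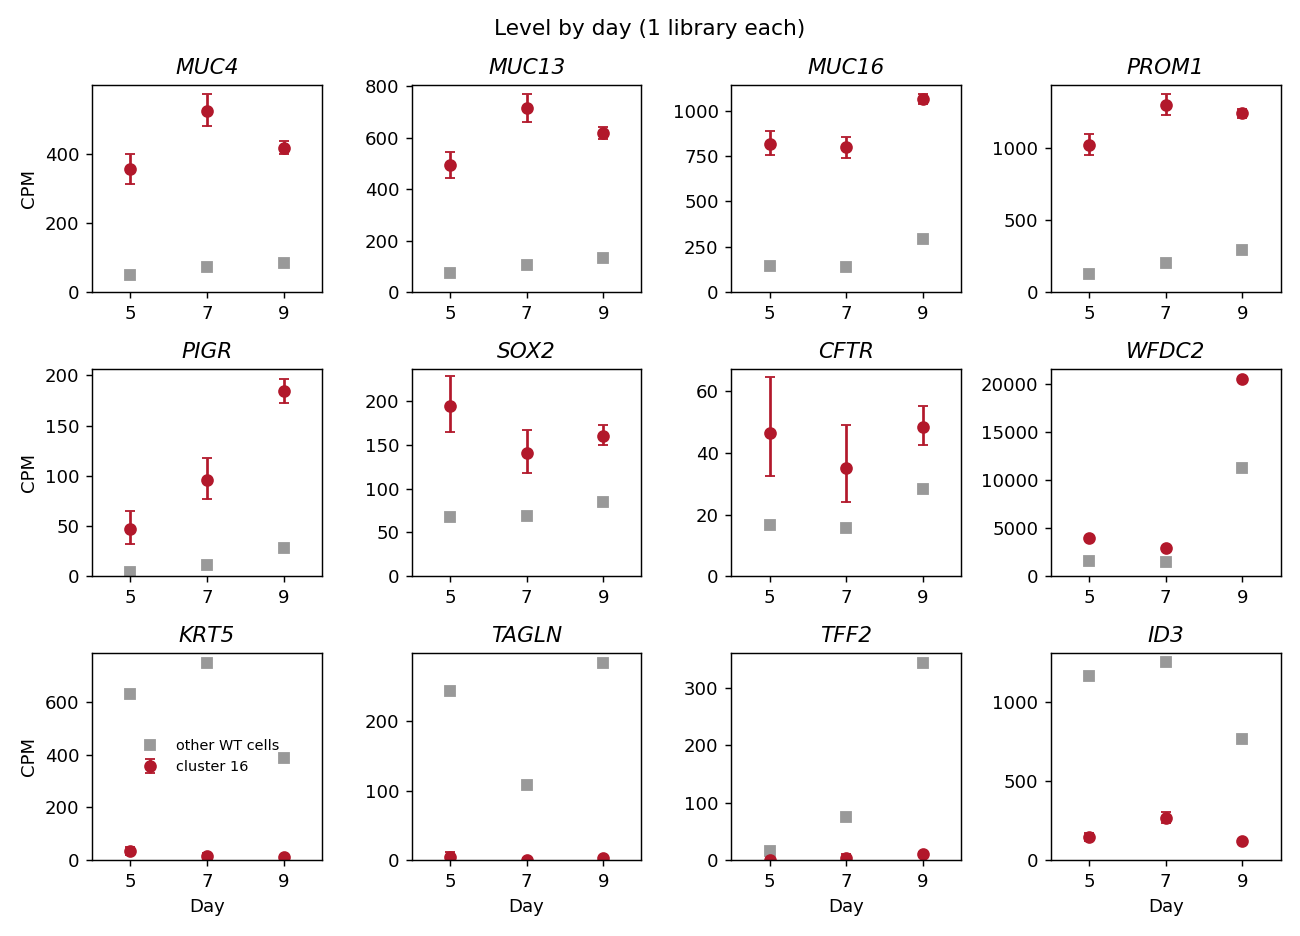
CPM by day in cluster 16 (red circles, with exact 95% Poisson intervals) and in the other WT cells (grey squares) for 12 genes, 1 library a day. For the upper 8 genes cluster 16 lies above the other cells on each of the 3 days, and for KRT5, TAGLN, TFF2 and ID3 it lies below on each.

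Junction and transport genes were next. Of the 16 junction genes measured at 10 CPM or more, 6 were at least 2-fold higher and 1 (PKP1, a desmosome plaque protein) was lower. E-cadherin (CDH1), the adhesion molecule of epithelial cells, had 874, 953 and 1046 CPM against 358, 352 and 475, the highest of the 39 WT clusters. OCLN and CLDN4 of the tight junction, CGN at its inner face, and the desmosomal cadherins DSC2 and DSG2 were the others, with differences from 1.06 to 1.70. Of 11 ion transport genes, 3 were higher: SCNN1A, a subunit of the epithelial sodium channel (541 CPM against 161), SLC12A2, which loads chloride into secreting cells (736 against 297), and ANO1, a calcium-activated chloride channel (173 against 73.7). The potassium channel KCNN4 was the 1 lower. Among solute carriers, a family chosen after the data had been seen, 44 of 128 genes were higher and 1 lower, with a median of 0.75 beside 0.16 over all genes. Without the filter at 10 CPM the counts were 53 higher and 15 lower of 313, with a median of 0.09, and with TMM factors 29 higher and 4 lower of 127. They included SLC5A1, a glucose transporter (71.2 CPM against 16.6), SLC15A2, a peptide transporter (170 against 40.9), and SLC7A11, which imports cystine (64.8 against 15.3). In cells matched on UMIs and mitochondrial percent, 19 of 127 solute carriers were higher and 2 lower, 3 of 16 junction genes were higher and 1 lower, and 1 of 11 ion transport genes (SCNN1A, at 1.20) was higher and 1 lower. Relative to genes of like span, 1 of the 11 ion transport genes was higher as well. Without day 9 the difference of SCNN1A was 2.39 in place of 1.75. Against cluster 3, the most like cluster 16 (described below), 0 of 16 junction genes, 1 of 10 ion transport genes and 11 of 123 solute carriers were higher. Their medians were 0.60, 0.71 and 0.60, beside 0.30 and 2.77% higher over all genes. Against the other WT centroacinar cells, 3 of 16 junction genes were higher, beside 6.37% of all genes.

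CFTR was above the other WT cells on each of the 3 days, with a day-matched difference of 0.86. It had 46.6 CPM at day 5, 35.0 at day 7 and 48.6 at day 9, against 16.7, 15.6 and 28.3. The day 9 ratio was 1.72 (1.49 to 1.96), and only cluster 17 (50.6 CPM) was higher among the WT clusters. Other centroacinar clusters ranged from 14.6 CPM in cluster 38 to 36.9 in cluster 7, beside 46.4 in cluster 16. Against the other WT centroacinar cells CFTR differed by 0.51, and against cluster 3 by 0.65. The difference of CFTR from the other WT cells depended on the processing. It was 1.49 without day matching, 1.29 without day 9, 0.44 against matched cells and 0.39 relative to genes of like span. In cells of at least 3000 UMIs and at most 10% mitochondrial it was 1.49, but that setting kept only a minority of cluster 16. The lower quartile of mitochondrial percent in cluster 16 was 11.6%, with 7.73% at day 5 and 12.2% at days 7 and 9. SOX2, a transcription factor of epithelial progenitors, had 194, 141 and 160.5 CPM, against 67.6, 69.0 and 84.5. Its day-matched difference, 1.00 when rounded, was just short of 2-fold, and its side of that limit depended on the processing. It was 0.82 with TMM factors and 0.83 with DESeq2 size factors, but 1.06 on a total without mitochondrial genes, 1.21 in cells of at least 3000 UMIs and at most 10% mitochondrial, 1.24 without day 9 and 1.44 relative to genes of like span. Against the other WT centroacinar cells the difference of SOX2 was 0.53, and against cluster 3 it was 0.38. Cluster 28 alone had more SOX2 (205 CPM), but its level was uneven over the other clusters, from 0.806 CPM in cluster 0, with a median of 107. Clusters 3, 21 and 12 had 130, 138 and 146 CPM, beside 162 in cluster 16. Of 13 progenitor transcription factors, KLF4 was past 2-fold upward, and GATA3, FOXA2 and PAX6 downward. PAX6, an eye and endocrine regulator, had 15 UMIs in the cluster, 2.29 CPM (1.28 to 3.77) against 36.4. Its level in the other WT cells was uneven, up to 215 CPM in cluster 27 with a median of 5.06 over the other clusters, and cluster 3 had 3.67 CPM. The difference of PAX6 was -3.51 in the main comparison, -4.68 without day 9 and -2.51 with a pseudocount of 5 CPM. PDX1, the pancreas master regulator, had 0 UMIs. This did not set the cluster apart: the other WT clusters had a median of 0 CPM, and the highest, cluster 30, had 0.157.

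After each cell was thinned to 3000 UMIs, which left out 70 of the 634 cells, 85.8% (82.7 to 88.6%) of cluster 16 cells held a PROM1 UMI and 67.7% (63.7 to 71.6%) a MUC4 UMI. In cluster 36, a WT centroacinar cluster with few of these transcripts (median 27837 UMIs), the shares were 6.25% and 0 of 96 cells, where 3 counts, the limit that a count of 0 allows, would be 3.12% of cells with a UMI. Without thinning, 6.19% of its cells held a MUC4 UMI. SOX2 was counted in 36.7% (32.7 to 40.8%) of cluster 16 cells and in 10.4% (5.11 to 18.3%) of cluster 36. KRT5 was counted in 3.90% and 88.5%. Cluster 3, the most like cluster 16 (described below), had PROM1 in 82.9% (80.5 to 85.2%), MUC4 in 44.6% (41.5 to 47.7%), SOX2 in 30.3% (27.5 to 33.2%) and KRT5 in 3.93% of thinned cells. These intervals count cells, which are not replicates, so they do not compare the clusters. Thinning left out 70 of the 634 cells of cluster 16 but 1 of the 1044 of cluster 3. In all, 99.3% of the thinned cluster 16 cells and 40.7% of the other WT cells held a UMI of PROM1, MUC4, MUC13 or MUC16. These 4 genes are high in cluster 16 in the same data, so this contrast was built in and is no added support. The 70 cells left out by thinning do not enter the 99.3%. No such share is given for cluster 3, where thinned cells held MUC13 in 54.2% and MUC16 in 80.2%, beside 78.7% and 90.2% in cluster 16. Without thinning the shares in cluster 16 were 92.7% for PROM1, 89.0% for MUC4, 66.4% for SOX2 and 12.5% for KRT5. In cluster 3, which was deeper (median 16409 UMIs), they were 99.8%, 91.7%, 80.0% and 13.0%.

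Genes of the basal and contractile cell state were among the lowest relative to the pooled other WT cells. TAGLN, an actin-binding protein of contractile cells, had 4.0, 0 and 2.70 CPM at day 5, 7 and 9, against 244, 108 and 284. KRT5, the basal keratin, had 33.3, 15.9 and 11.4 CPM, against 630, 747 and 386. At day 9 KRT5 was 33.8 times (25.9 to 44.8) and TAGLN 105 times (61.6 to 198) lower in cluster 16. TAGLN was uneven over the other cells, with 1518 CPM in cluster 2, and cluster 16 ranked 22 of 39 (2.44 CPM, beside a median of 3.95 over the other clusters), while for KRT5 it ranked 32 (14.6 CPM, beside a median of 738). The heat shock protein HSPB1 had 17.4 CPM (14.3 to 20.9) against 574, and CALD1, a regulator of actomyosin, 10.2 (7.92 to 13.0) against 349. SPARC, a matrix protein, SNAI2, a transcription factor of epithelial-mesenchymal transition, and FST, an inhibitor of activin, differed by -4.86, -4.80 and -5.01. The trefoil peptide TFF2, a product of mucous cells, had 0, 4.24 and 11.2 CPM, against 16.5, 75.5 and 343. The level of TFF2 in the other WT cells was uneven, with 2712 CPM in cluster 17 and 750 in cluster 30, and cluster 16 (8.84 CPM) ranked 11 of 39 beside a median of 4.29 over the other clusters. After thinning, 3.37% of cluster 16 cells and 3.73% of the other WT cells held a TFF2 UMI. The difference of TFF2 was -4.75 in the main comparison and -3.89 without day 9. It was -2.10 in cells of at least 3000 UMIs and at most 10% mitochondrial, which are a minority of cluster 16. Against cells matched on UMIs and mitochondrial percent it was -5.56. Also among the lowest 15 were ECRG4, LY6D, NRN1 and the unnamed LOC101679442, LOC101679740 and LOC123386962, with differences from -4.82 to -5.40. All 15 stayed at least 2-fold lower against the other centroacinar cells and against cells matched on UMIs and mitochondrial percent.

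By list, 6 of 7 mesenchymal genes were lower (VIM, TAGLN, CALD1, MYL9, FN1 and SPARC), and PDGFRA, a growth factor receptor, was higher, at 16.5 CPM against 4.64. Of 7 basal genes, 4 were lower: KRT5, TP63, ITGB4 and COL17A1. Of 7 BMP response genes, 4 were lower, namely ID1, ID3, SMAD7 and BMP2 itself. ID3, an inhibitor of helix-loop-helix factors, had 145, 267 and 121 CPM, against 1169, 1255 and 769. In the TGF-beta response list 6 of 12 were lower (TGFBI, SMAD7, TGFB1, PMEPA1 and INHBA among them) and 2 higher (TGFB2 and the matricellular CCN1). Of 7 interferon-stimulated genes, 4 were lower (ISG15, ISG20, IFIT2 and IFI6). In the NF-kB response list 4 of 12 were higher and none lower. These were ICAM1, an adhesion receptor (692 CPM against 274), CXCL8, a neutrophil attractant (31.9 against 8.29), CSF3 (81.3 against 25.2) and LIF (42.2 against 16.6). In the secretory list 4 of 10 were higher (PIGR, MUC5AC, MUC5B and SPDEF, a goblet cell factor) and 2 lower (LTF and BPIFB1). ER folding genes, which serve protein secretion, had 0 of 12 past 2-fold and a median of -0.02. Some members of these lists reached 10 CPM only through the group where they were high. With every member of at least 1 UMI, 7 of 16 mesenchymal genes were lower (median -0.20), 5 of 9 basal (-1.19), 5 of 12 BMP response (-0.91), 6 of 14 TGF-beta response (-0.58) and 5 of 13 interferon-stimulated genes (-0.52), and 4 of 16 NF-kB response genes were higher (0.47). With a filter at 50 CPM, 2 of 8 NF-kB response genes were higher. Cluster 3, the most like it, had levels near these for the mesenchymal, basal, BMP response, TGF-beta response and interferon-stimulated lists. Against that cluster, day-matched, their medians were -0.12, 0.19, -0.05, 0.31 and 0.41, beside 0.30 over all genes. None of their members was 2-fold lower, but only 8 of all 7945 genes (0.101%) were, so that count says little. Of 12 NF-kB response genes 1 was higher, beside 2.77% of all genes. Of 9 secretory genes 1 was higher than in cluster 3, with a median of 0.48. The secretory list summed to 16871 CPM in cluster 16 against 18923 in cluster 3.

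Defining markers of several other cell types were at or near 0. Over the cluster, 6 endothelial genes summed to 0.457 CPM, 12 ciliated cell genes to 1.37, 7 tuft cell genes to 0.457 and 9 immune genes to 15.6, of which CD68 made 14.2. Of 18 endocrine genes, 13 had no UMI, and the list summed to 14.3 CPM against 89.0 in the other WT cells. Other lists had higher sums. The 6 Schwann and neural genes summed to 66.5 CPM against 21.2, nearly all of it ERBB3, a growth factor receptor (66.0 against 21.1), with 4 of the 6 at 0. The 5 ionocyte genes summed to 60.5 CPM against 29.1, nearly all of it ATP6V1B1, a proton pump subunit (60.2 against 21.3), with 3 of the 5 at 0. The 8 squamous genes summed to 145 CPM against 143, and KRT4, a keratin, was the 1 higher (116 against 47.9) and LY6D the 1 lower. The 10 gastric surface genes summed to 457 CPM against 807, with TFF1 and TFF2 lower and none higher. The 5 umbrella cell genes of bladder surface cells summed to 1445 CPM against 786, and UPK1A, a uroplakin, was the 1 higher (329 against 114).

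**Figure D4:**
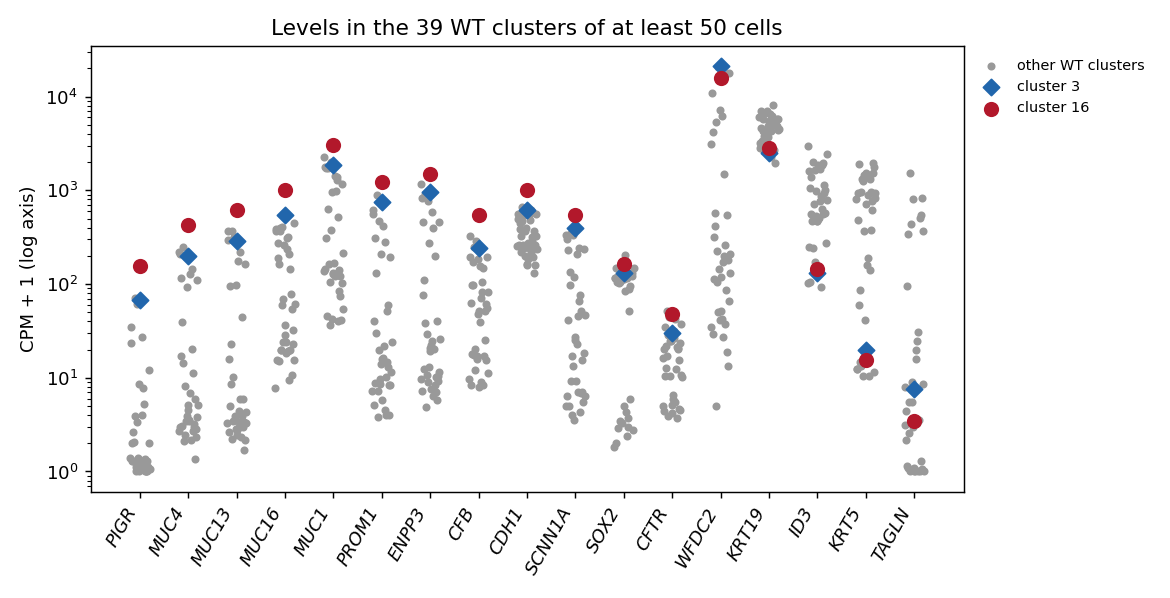
Level of 17 genes in the 39 WT clusters of at least 50 cells, on a log axis of CPM + 1, with cluster 16 in red, cluster 3 in blue and the other clusters in grey. Cluster 16 is the highest for the genes from PIGR to SCNN1A, with cluster 3 below it in each of these.

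Over 10654 genes with at least 10 CPM in a WT cluster, the cluster most like cluster 16 was cluster 3, with a Pearson correlation of 0.978 between log2(CPM + 1) profiles. Cluster 3 was also deposited as centroacinar and held 1044 cells, 965 of them at day 9. Clusters 21, 10, 18 and 1 followed, at 0.967, 0.966, 0.964 and 0.962, and these were all deposited as centroacinar progenitor. The other centroacinar clusters of at least 50 cells came later: cluster 7 at 0.957, cluster 29 at 0.941, cluster 12 at 0.876, cluster 30 at 0.871, 36 at 0.780 and cluster 38 at 0.688. Of the CF clusters, number 17 was the most like it, at 0.884, and the genotypes had been clustered apart. Points of such a correlation share their libraries and, among WT clusters, 1 clustering, so it is a description.

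The deposited pseudotime scores, which slingshot had computed from the same expression values, placed nearly all cells of cluster 16 on 1 of the 15 lineages scored. On lineage 7, 625 of the 634 cells had a score, with a median of 65.2 (quartiles 61.7 and 70.0), and the other 7377 WT cells with a score had 42.2 (21.6 and 52.4). Its cells had a median score of 62.4 on day 5, of 64.5 on day 7 and of 65.6 on day 9. It was the highest of the WT clusters with at least 20 scored cells, and clusters 18 and 3 followed at 57.0 and 56.5. On lineage 5, 50 cells of cluster 16 had a score, with a median of 61.6 against 44.0 in the other WT cells and 58.1 in cluster 3. On lineage 6, 38 cells had a score, with a median of 54.9 against 47.9, but at day 9, which held 22 of them, it was 52.5 against 53.1.

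Against cluster 3, day-matched, the calls on plain CPM were one-sided. Most genes lay above cluster 3 (74.1% above 0), and this comparison was not repeated with TMM or DESeq2 factors. Of 7945 genes, 220 (2.77%) were at least 2-fold higher in cluster 16 and 8 (0.101%) at least 2-fold lower, and the median difference was 0.30. Cluster 3 had 50 cells at day 5 and 29 at day 7. Of the 220, 209 were higher in each of the 3 libraries and 69 were 2-fold higher in each. All of the 8 were lower in each, and none of the 8 was 2-fold lower in each. Among those with a name were PI3, an elastase inhibitor (20.0 CPM against 48.9), LYRM4 and BOLA3, both of iron-sulfur cluster assembly (41.0 against 86.0 and 141 against 293), and COMMD6 (147 against 313). Of the 15 genes lowest against the other WT cells, 14 lay within 2-fold of cluster 3 and FST (-1.30) did not. KRT5 differed by -0.39, TAGLN by -0.97 and TFF2 by 0.28. MUC13, MUC4, MUC16, MUC1, PROM1 and PIGR were above cluster 3 on each of the 3 days, with day-matched differences of 1.03, 0.98, 0.86, 0.69, 0.71 and 1.26. MUC5B differed by 0.03 at day 5, -0.01 at day 7 and 1.19 at day 9, and MUC5AC by -1.83, -1.25 and 0.77. Past 2-fold over all days, 1 of the 6 mucins (MUC13) was higher.

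The 10 genes furthest above cluster 3, and the 10 furthest above all other WT centroacinar cells, were rRNA genes. Their copies are near identical, so reads may be split between them and single values are uncertain. All 19 rRNA genes with at least 10 CPM were at least 2-fold higher than in the other WT cells, but some reached 10 CPM only through cluster 16. Without that filter 22 of 29 were higher, with a median of 2.06. Together the 66 in the files had 5898 CPM against 905, and 669 in cluster 3. Their sum by day was 6273, 6013 and 5784 CPM in cluster 16 and 735, 726 and 971 in the other WT cells. The transcripts of ribosomal proteins stood the other way. All 75 were below the other WT cells, 56 of them at least 2-fold, and their sum was 6.15% of UMIs against 13.2%. Against cluster 3 their median was -0.73, with 73 of 75 below and 0 past 2-fold. In cells matched on UMIs and mitochondrial percent the rRNA genes had a median of 1.66 and 17 of 19 were higher, while 2 of the 75 ribosomal protein genes were 2-fold lower, with a median of -0.81.

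Some protein-coding genes above cluster 3 are named here after their values were seen, and no list of their kind was counted. CLK4, a kinase of splicing factors, had 34.9 CPM against 11.3, RSRP1, a serine- and arginine-rich protein, 118 against 46.2, and NKTR 74.7 against 29.3. OGT, which attaches GlcNAc to nuclear proteins, had 42.1 against 16. WSB1, the centroacinar class marker, differed most from cluster 3 among its list, with 167 CPM (158 to 177) against 52.0 and 77.5 in the other WT cells. By day WSB1 had 253, 226 and 142 CPM in cluster 16. DUOX2, which makes hydrogen peroxide at the apical surface, had 39.6 against 16.2, and its maturation factor DUOXA2 had 100 against 36.3. Whether the rRNA, mitochondrial and depth values have a part in these differences was not tested.

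Differences followed the genomic span of the gene. The protein-coding genes were divided, after the data had been seen, into 10 groups of 822 or 823 by span. The median difference from the other WT cells was -0.44 in the group with the shortest spans (204 to 4094 bases) and 0.48 in that with the longest (135000 to 1492536 bases). At least 2-fold higher were 3.28% of the shortest and 14.1% of the longest, and 18.5% and 4.86% were at least 2-fold lower. Against cluster 3 the medians were -0.08 and 0.43. For a further setting, 10 span groups were formed anew over all 8351 genes with a span, not the protein-coding genes alone. Taking each gene relative to the median of its group there left 512 higher and 540 lower genes. Of these, 414 and 403 were among the original calls. The mucins and PROM1 kept differences of 2.33 (MUC4), 2.12 (MUC13), 1.57 (MUC16), 1.88 (MUC1) and 1.76 (PROM1), and CDH1 had 0.77 in place of 1.19.

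**Figure D5:**
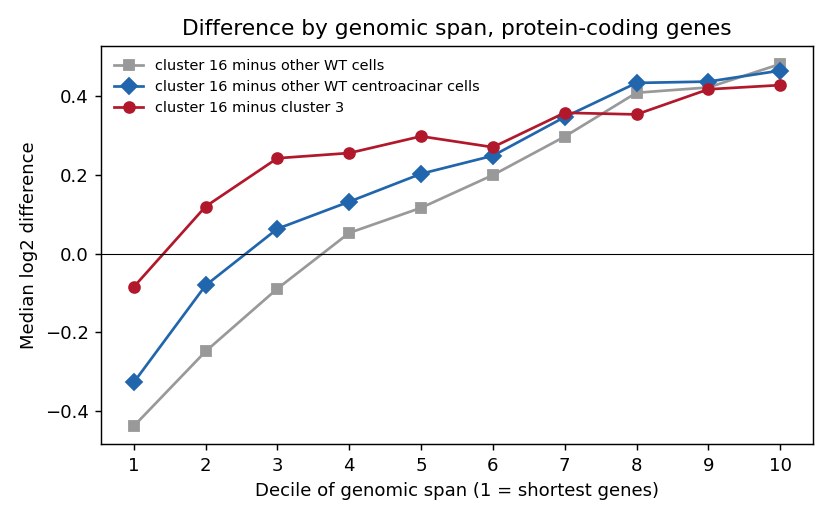
Median log2 difference of protein-coding genes in each of 10 groups by genomic span, for cluster 16 minus the other WT cells (grey), the other WT centroacinar cells (blue) and cluster 3 (red). The grey line goes from -0.44 in the shortest to 0.48 in the longest group, and the other lines climb as well.

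Levels within the cluster also differed between day 5 and day 9. Of 8259 genes with at least 10 CPM at either day, 143 (1.73%) were at least 2-fold higher and 156 (1.89%) at least 2-fold lower at day 9, with 1 library a day. The balance turned with the scaling, to 200 higher and 86 lower with TMM factors and 165 higher and 109 lower with DESeq2 size factors. Lactoferrin (LTF), an antimicrobial protein, had 1.33, 10.6 and 51.3 CPM at day 5, 7 and 9, TFF3, a trefoil peptide, 25.3, 125 and 324, and MUC5AC 24.0, 78.5 and 276. WFDC2, a secreted protease inhibitor homolog, had 3971, 2976 and 20509 CPM. The other WT cells were also higher at day 9, with 1612, 1515 and 11291 CPM for WFDC2 and 4.56, 11.5 and 120 for LTF. Of the 143 genes, 105 were also higher at day 9 in the other WT cells, 36 of them at least 2-fold, and of the 156, 127 were also lower, 12 of them at least 2-fold. The same shares over all 8259 genes are not given, so no agreement is read from these counts. PIGR, CLU, ATP6V1B1, TNNC1 and PKIA were among the 10 furthest up. Furthest down were CCL20, an attractant of lymphocytes (29.3, 4.24 and 3.53 CPM), TM4SF5, SCGB1A1, a secretoglobin (49.3, 22.3 and 12.9), CALD1, CLCA2, RSPH4A, MED20, KRT5 and the unnamed LOC101691098 and LOC101675111. SCGB1A1 in the other WT cells was 9.77, 9.81 and 12.3 CPM.

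Within the deposited centroacinar class, a larger share of the upward than of the downward genes was called again. Against the other WT centroacinar cells, day-matched, 518 of 8126 genes (6.37%) were at least 2-fold higher and 204 (2.51%) lower. These calls are on plain CPM, where the median over all genes was 0.25, and were not repeated with TMM or DESeq2 factors. Of the 778 genes higher and 550 lower than in all other WT cells, 466 and 200 were called in the same direction here. PIGR differed by 2.26, MUC4 by 1.95, MUC13 by 1.91, MUC5B by 1.94 and PROM1 by 1.71. S100A6 and S100A4, both class markers, had -0.66 and -0.02. WFDC2 differed by 0.10.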

How the data were processed

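The deposited counts were whole UMIs per gene and barcode. The authors had used Cell Ranger 5.0.1, with the ASM1176430v1.1 genome of the ferret as reference, and then R 4.1.2 and Seurat. The mitochondrial percent of each cell was computed by the authors and deposited, and they filtered cells on it and on the number of genes. DoubletFinder had already been applied, and doublets were not called again. Cluster numbers, class names and slingshot scores (pseudotime) are as deposited. The deposited normalized values were not used. Retained WT libraries held 82961927 to 114585136 UMIs. UMIs of each gene were summed over cells and scaled to CPM (Python 3 with numpy and scipy). Differences used a pseudocount of 1 CPM and genes of at least 10 CPM, and 2-fold was the limit for a call. The day-matched computation was tested on simulated data. Scaling factors came from edgeR 4.0.16 (TMM) and DESeq2 1.42.0. With 1 library a day, no test was run. Spans and rRNA annotation came from RefSeq for the same assembly, where 27467 of 27912 genes matched by symbol.

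Genes named in the text were, by rule, the 25 highest and 15 lowest against the other WT cells, those higher or lower in every library with at least 50 cluster cells and of at least 20 CPM, the 10 highest against the other centroacinar cells and against cluster 3, the 10 furthest up and down between day 5 and day 9, members of lists with at least 4 members past 2-fold, and CFTR, PDX1, SOX2 and PAX6. Others were chosen after their values were seen. Some genes that the rule names are not reported here. The members, the 51 gene lists and the alternatives were chosen with earlier results of these data known.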

Additional observations from a re-analysis of the deposited data

How the results depend on the processing

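Counts of genes higher and lower in cluster 16 (778 and 550) moved past 1.5 times under these alternatives. Without day matching they were 1192 and 845, and against other WT centroacinar cells 518 and 204. Higher genes were 464 with TMM factors, 476 with DESeq2 size factors, 508 with a pseudocount of 5 CPM and 396 with a filter at 50 CPM, where lower genes were 255. With no filter lower genes were 1002. Chosen after the data had been seen, matching on UMIs and mitochondrial percent gave 262 and 293, cluster 3 as comparison 220 and 8, and differences relative to span 512 higher. Leaving out each library in turn gave 722 to 1144 higher and 524 to 768 lower, with the highest of both without day 9. Denominators of the centroacinar class gave shares of 17.2, 10.3, 13.8 and 18.8%, and genes higher and lower at day 9 than day 5 were 200 and 86 with TMM factors in place of 143 and 156. For these the cause was not tested beyond what each alternative changes by construction.

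Of the named genes, LTF turned from -1.18 to 0.42 without day matching. Against cluster 3, LTF (0.55), ECRG4 (0.11), TFF2 (0.28) and CLCA2 (0.054) turned from lower to higher. Not every gene in the report was recomputed under each alternative. Among those that were and were past 2-fold, no other changed direction. No paired test by library was run, because the clusters were formed on the same genes and its outcome would be built in. Cluster 16 was therefore not tested against other cells. Cluster 16 and the other WT cells share each library, and differences within libraries stand in the report as values. Pooled donors, 1 library a day and 5 cells at day 2 limit every value. The 634 cells hold few UMIs of genes under about 1 CPM.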
